A study of Mus musculus with 5 samples.

Results

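The genes described here encode the proteins of the cytosolic ribosome, those of the large subunit (symbols beginning Rpl) and of the small subunit (symbols beginning Rps). Members were the probe sets whose annotation gave exactly 1 gene symbol of the form Rpl or Rps with a number and at most 1 letter, or the symbols Rplp0, Rplp1, Rplp2 or Rpsa. This rule found 100 of the 45037 probe sets that are not array controls, and they stood for 46 of 18193 named genes, 24 of the large and 22 of the small subunit. Rplp1 had no probe set of its own. RNA of whole blood from adult female mice was measured on Affymetrix expression arrays, 1 array per sample. The AKRxFVB F1 group, the F1 offspring of AKR/J and FVB/NJ, had 2 arrays, and the DBAxFVB F1 group, the F1 offspring of DBA/2J and FVB/NJ, had 3. All animals thus share 1 FVB/NJ parent. Blood was drawn by cardiac puncture from animals killed under Avertin anaesthesia, and the RNA went through a 2-cycle amplification. Nothing in the labels tells if each sample was a separate animal, so the spread between them may be technical. Its stated purpose was a comparison of baseline blood expression between the genotypes.

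Each ribosome holds 1 copy of nearly every ribosomal protein, and cells make these proteins in matched amounts. Their mRNAs carry a 5′ terminal oligopyrimidine tract (TOP), an opening C followed by an unbroken run of C and T, through which mTOR signalling and the RNA-binding protein Larp1 set their translation. In blood they are abundant in lymphocytes, while red cells lose their ribosomes as they mature. Loss of 1 copy of several of these genes causes Diamond-Blackfan anaemia, a failure of red cell production.

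The start of the gene is shown for 10 members. Most of the group have a run of C and T near it, and the choice of members did not use this. Such a run may lie up to 25 bases from the annotated start, so it is not shown to be the TOP tract, nor its absence to be a lack of one. Each window has 30 bases, from 15 before to 14 after the annotated start base. Capitals mark the longest run of 6 or more C and T that begins with C and lies within 25 bases of the start, as far as the window shows it. Sequences are those of RefSeq, build GRCm38.p6, from the reference strain and not from the crosses. The members below carry such a run.
Rps18, chr17:33955651-33955680, minus strand: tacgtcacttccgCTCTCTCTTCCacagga
Rps10, chr17:27635230-27635259, minus strand: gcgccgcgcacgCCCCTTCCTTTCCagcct
Rps26, chr10:128626492-128626521, minus strand: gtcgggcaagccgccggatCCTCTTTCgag
Rpl35, chr2:39005117-39005146, minus strand: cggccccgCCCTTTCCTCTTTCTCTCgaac
Rpl27a, chr7:109519180-109519209, plus strand: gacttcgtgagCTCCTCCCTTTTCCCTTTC
Rpl7a, chr2:26910792-26910821, plus strand: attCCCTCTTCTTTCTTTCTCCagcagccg
Rplp2, chr7:141447636-141447665, plus strand: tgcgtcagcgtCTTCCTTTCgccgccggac
The next 3 have no such run around their annotated start.
Rps4x, chrX:102189377-102189406, minus strand: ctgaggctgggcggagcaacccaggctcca
Rps3, chr7:99483695-99483724, minus strand: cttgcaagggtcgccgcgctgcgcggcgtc
Rpl41, chr10:128549154-128549183, minus strand: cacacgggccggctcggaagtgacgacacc

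Of the 40 members with an entry in the RefSeq table, 27 (67.5%) held a run of this kind on the coding strand, against 38.5% of all 27025 genes with an entry. The ETS core CCGGAA, searched on both strands of the window from 250 bases before to 50 after the start, was found in 65.0% of members and 16.7% of all genes. The SP1 box GGGCGG was found in 55.0% against 38.2%, the YY1 core AAGATGGC in 7.5% against 3.19%, and the TATA box TATAAA in 12.5% against 15.7%. Among the 34 members with an entry that were tested between the crosses, the median log2 difference was -0.78 for the 23 with a C and T run and -0.94 for the 11 without. A match of letters is a description of the window only.

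Most ribosomal protein genes read lower in the blood of the DBAxFVB F1 mice, by a median fold of 1.72, and no single gene passed the test. Values are log2 expression, and differences are DBAxFVB F1 minus AKRxFVB F1. Each gene is represented by whichever of its probe sets had the highest mean. Of the 46 genes, 40 had a mean at or above 2.51, the median of all probe sets, and were tested. Of these, 38 lay lower in DBAxFVB F1, where 41.7% of all 12421 tested genes lay lower, and the median difference was -0.78, where that of all genes was 0.05. In 32 of the 40 every DBAxFVB F1 array lay below every AKRxFVB F1 array, as in 11.9% of all genes, and in 1 every array lay above, as in 17.0%. A fold of 2 or more was reached by 10 members, all lower, against 2.25% of all genes. Limma, a linear model fitted to all probe sets, called 0 members at a Benjamini-Hochberg adjusted p below 0.05, as it called 0.0% of all genes, with 0.246 as the lowest adjusted p among members. Without adjustment, 14 members had a limma p below 0.05, all of them lower, against 6.4% of all genes lower and 3.61% higher. In whole blood, fewer cells of a type and less RNA per cell cannot be told apart.

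**Figure D1:**
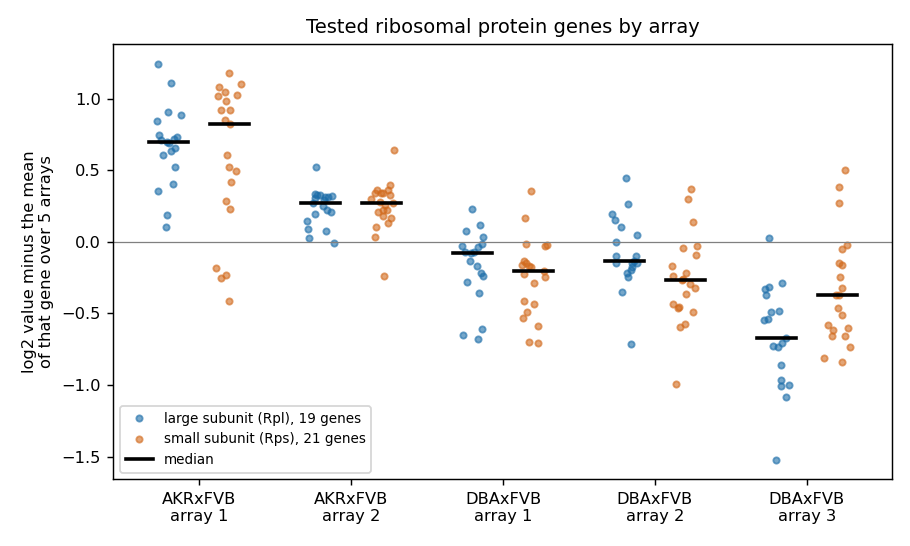
Each point is 1 of the 40 tested ribosomal protein genes on 1 array, plotted as its log2 value minus its mean over the 5 arrays (vertical axis), with large subunit genes in blue, small subunit genes in orange and the median of each as a black line. Both subunits have their highest medians on AKRxFVB F1 array 1 (0.69 and 0.82), and their lowest on DBAxFVB F1 array 3 (-0.67 and -0.37).

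The arrays of 1 cross did not read alike. The median over the 40 genes, relative to each gene's mean over all arrays, was 0.70 and 0.27 for the 2 samples of AKRxFVB F1. For the 3 of DBAxFVB F1 it was -0.17, -0.17 and -0.52. AKRxFVB F1 array 1 lay above array 2 in 36 of the 40 members, by a median of 0.45, where it did so in 45.6% of all genes. In the 32 genes without overlap, the median gap between the crosses, from the lowest AKRxFVB F1 to the highest DBAxFVB F1 array, was 0.41, while the median range within AKRxFVB F1 was 0.49 and within DBAxFVB F1 0.46. The gap was wider than the range of both crosses in 5 genes, Rpl22, Rpl8, Rps20, Rps24 and Rps26. In Rps20 and Rps26 it was barely so, with gaps of 0.641 and 0.596 against AKRxFVB F1 ranges of 0.630 and 0.580. The same count was not made over all genes, so no share stands beside it. Those 5 were picked out after their values were seen.

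DBAxFVB F1 array 3 stood apart in its spiked control transcripts, though not in its median over all probe sets, 2.54 against 2.49 to 2.53. Counts over members and counts or medians over most gene lists are therefore given without it as well. So are some of the single genes where it moved the difference by over 1.5 times. The median log2 value of 18 probe sets for spiked control transcripts was 7.99 against 10.01 to 10.12 on the other arrays. The difference between the 3′ and 5′ probe sets of Actb, a sign of RNA quality, was 1.32 on that array, between 0.68 and 0.82 on the other DBAxFVB F1 arrays and 1.03 and 1.22 on the AKRxFVB F1 arrays. For Gapdh it was 1.33, then 0.62 and 0.58, and 1.04 and 0.73. Apart from array 3, both measures were thus higher on each AKRxFVB F1 array than on each DBAxFVB F1 array. The part of RNA quality in the differences was not tested. Without array 3, 37 of the 40 ribosomal protein genes lay lower in DBAxFVB F1, against 42.2% of all genes, and the median difference was -0.61. Both remaining DBAxFVB F1 arrays then lay below both AKRxFVB F1 arrays in 34 members, against 17.4% of all genes, and 20 members had an unadjusted limma p below 0.05, against 7.27%. The smallest limma adjusted p was 0.104 in that fit, for Rps18. Leaving out array 3 moved the difference of 13 of the 40 members by over 1.5 times, and leaving out AKRxFVB F1 array 1 that of 17.

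The signal level of a probe set moved with the difference in the whole series, and the members are mostly bright. Of the 40 tested members, 29 had a mean log2 value of 8 or more, and all 29 lay lower in DBAxFVB F1, with a median difference of -0.81. The 213 other genes at that level had a median of -0.44, and 89.2% of them lay lower. Of the bright members 27 were lower without overlap, against 10.3% of the others, and 11 had an unadjusted limma p below 0.05, against 2.35%. Their pattern over the arrays was only in part that of the members. DBAxFVB F1 array 3 was the lowest of the 5 arrays in 87.8% of these other genes and in 23 of the 29 bright members. Relative to the mean of the other DBAxFVB F1 arrays, it differed by a median of -1.12 in the other genes and -0.43 in the members. AKRxFVB F1 array 1 lay above array 2 in 16.0% of the other genes, where it did so in 28 of the 29 bright members. Without array 3 the median difference of the other bright genes was -0.04, with 57.3% lower and both DBAxFVB F1 arrays below both AKRxFVB F1 arrays in 11.3%. For the bright members the median was then -0.66, with no overlap in 28 of 29. The 8 members with means between 4 and 8 had a median difference of -0.84 over all 5 arrays, against -0.02 for the 3225 other genes of that level.

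**Figure D2:**
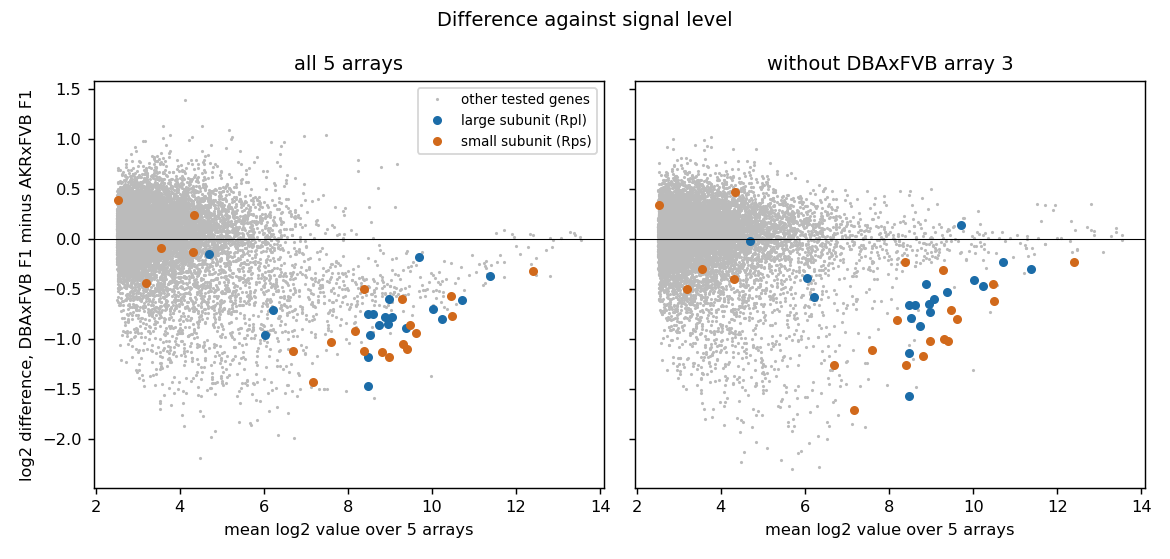
Each point is 1 tested gene, with its mean log2 value over the 5 arrays on the horizontal axis and its log2 difference between the crosses on the vertical axis, from all arrays on the left and without DBAxFVB F1 array 3 on the right. Other genes are grey. The grey points of mean 8 or more centre on -0.44 on the left and on -0.04 on the right, while the ribosomal protein genes of that level centre on -0.81 and -0.66.

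Scaling of the arrays changed the size of the difference. After quantile normalization, which gives all arrays the same distribution of values, the median of the members was -0.29, with 35 of 40 lower against 41.7% of all genes, and 0 members had an unadjusted limma p below 0.05, against 5.62%. After cyclic loess normalization, which removes differences that follow the signal level, the median was -0.35, with 35 of 40 lower against 47.6%, and 1 member had such a p, against 7.05%. Rps9 and Rps2 changed sign with quantile normalization, to 0.01 and 0.04, Rpl38 and Rps29 with cyclic loess, to 0.27 and 0.39, and Rpl41 with both, to 0.41 and 0.33. The unadjusted count depended on which array was left out. Without AKRxFVB F1 array 1, 0 members had a limma p below 0.05, against 3.99% of all genes lower, while 39 of 40 members lay lower, with a median of -0.59. The count was 15 without AKRxFVB F1 array 2, against 5.84% of all genes, and 7 without DBAxFVB F1 array 2, against 4.63%. Without DBAxFVB F1 array 1 it was 3 lower, against 5.39%, and 1 higher, against 4.1%, so the share of members was then close to that of all genes.

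The difference between large and small subunit genes was small and changed sign with the setting. All 19 tested large subunit genes lay lower in DBAxFVB F1, with a median of -0.78, and 19 of 21 small subunit genes, with a median of -0.87. There was no overlap, with DBAxFVB F1 below, in 15 of the 19 and 17 of the 21, against 11.9% of all genes. The unadjusted limma p was below 0.05 in 4 large and 10 small subunit genes, all lower, against 6.4% of all genes lower. Leaving out DBAxFVB F1 array 3 made it 8 and 12, against 7.27%. The large minus small difference of medians was 0.085. Taken array by array, the large subunit median minus the small was -0.13 and -0.00 in AKRxFVB F1 and 0.13, 0.13 and -0.30 in DBAxFVB F1, so the crosses overlapped, through array 3 of DBAxFVB F1 alone. Without that array the large minus small difference of medians was 0.13. The subunits were furthest apart on DBAxFVB F1 array 3, which lay more than 0.5 below the mean of the other arrays of its cross in 10 of 19 large and 4 of 21 small subunit genes. When each gene was given by the median of its probe sets, the large minus small difference had the other sign, -0.12. It was -0.029 without AKRxFVB F1 array 1.

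**Figure D3:**
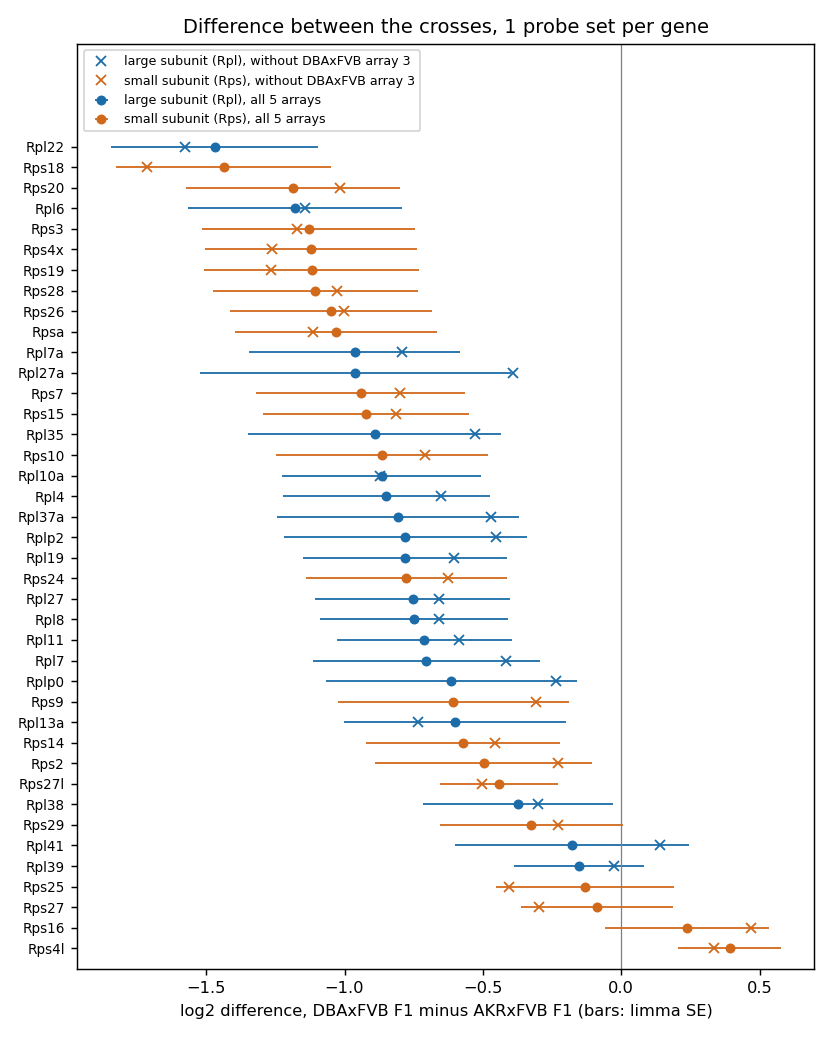
The horizontal axis is the log2 difference between the crosses for each tested ribosomal protein gene (vertical axis, 1 probe set per gene), as circles with limma's standard error over all 5 arrays and as crosses without DBAxFVB F1 array 3. Values run from -1.47 for Rpl22 to 0.39 for Rps4l, and the colours of the subunits are mixed along the order.

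In the large subunit, Rpl22 had the largest difference. It encodes an RNA-binding protein of the subunit surface that developing αβ T cells require. Its log2 values were 9.72 and 8.996 in AKRxFVB F1 and 7.80, 7.76 and 8.10 in DBAxFVB F1. The crosses did not overlap, and the difference was -1.47 ± 0.37 (SE), with a limma adjusted p of 0.246. That probe set is of the _s_at kind, with probes shared between genes. A plain _at probe set of Rpl22 with a mean of 6.22 differed by -1.01. Another _s_at probe set, with a mean of 2.63, differed by -0.41, and both were without overlap. Rpl6, a protein of the large subunit's outer surface, read 9.58 and 8.78 against 7.82, 8.25 and 7.92, again without overlap. Its difference was -1.18 ± 0.39 (SE), with a limma adjusted p of 0.371, and -0.78 without AKRxFVB F1 array 1.

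The tested genes for proteins around the sites where factors and nascent chains meet the large subunit lay lower as well. The stalk, formed by Rplp0 with Rplp1 and Rplp2, recruits the GTPase factors of translation. Rplp0 read 11.11 and 11.05 in AKRxFVB F1 and 10.78, 10.90 and 9.71 in DBAxFVB F1. Its difference of -0.61 ± 0.45 (SE) was -0.24 without DBAxFVB F1 array 3, the lowest of its arrays by more than 1 log2 unit. Rplp2 differed by -0.78 ± 0.44, or -0.45 without that array. Rpl12, at the base of the stalk, had a probe set below the filter. Of the 8 listed proteins that line the exit tunnel, 4 had probe sets, and Rpl4, Rpl19 and Rpl35 differed by -0.85, -0.78 and -0.89 without overlap. Rpl35 was at -0.53 without DBAxFVB F1 array 3. Rpl39, the other one, read 4.80 and 4.77 against 4.68, 4.85 and 4.38, and its groups overlapped. Its difference of -0.15 was -0.025 without array 3. Rpl11, which with Rpl5 carries the 5S rRNA and can bind Mdm2, read 6.92 and 6.35 against 6.14, 5.96 and 5.67, a difference of -0.71 ± 0.32 (SE) that was -0.43 without AKRxFVB F1 array 1. Rpl5 had no probe set of its own.

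Rpl41 had a difference near 0 and arrays that overlapped. It encodes a very short peptide at the interface between the subunits. It read 9.89 and 9.73 in AKRxFVB F1 and 9.93, 9.97 and 8.995 in DBAxFVB F1. The first DBAxFVB F1 arrays thus lay above both AKRxFVB F1 arrays and only array 3 below, and the difference was -0.18 ± 0.42 (SE), or 0.14 without array 3. Its other bright probe set differed by 0.14. Rpl38, a protein that some Hox mRNAs need for their translation, read 11.74 and 11.48 against 11.36, 11.25 and 11.10, without overlap and with a difference of -0.37 ± 0.34. Rpl13a, which leaves the ribosome to silence inflammatory mRNAs in myeloid cells, read 9.70 and 8.96 against 8.37, 8.83 and 9.004. Array 3 of DBAxFVB F1 lay just above AKRxFVB F1 array 2, so the crosses overlapped in this probe set, with a difference of -0.60. Leaving out AKRxFVB F1 array 1 gave -0.23, and leaving out array 2 gave -0.97. The other 3 probe sets of Rpl13a differed by -0.81, -1.11 and -0.97, all without overlap.

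In the small subunit, 9 of the 10 tested genes of the head, the part that moves along the mRNA, lay lower in DBAxFVB F1, with a median of -1.01, or -0.92 without array 3. Rps18, beside the site of the peptidyl tRNA, read 8.25 and 7.81 in AKRxFVB F1 and 6.46, 6.18 and 7.14 in DBAxFVB F1. The crosses did not overlap, array 3 was the highest of its cross, and the difference was -1.44 ± 0.39 (SE), with a limma adjusted p of 0.262. Rps20 read 10.001 and 9.37 against 8.73, 8.61 and 8.16, a difference of -1.19 ± 0.39. Rps3, at the entry of the mRNA channel, read 9.91 and 9.06 against 8.27, 8.35 and 8.44, a difference of -1.13 ± 0.38 that was -0.71 without AKRxFVB F1 array 1. In Rps3 the DBAxFVB F1 arrays lay within 0.2 of each other while the AKRxFVB F1 arrays lay 0.84 apart. Rps28 read 10.39 and 9.75 against 8.97, 9.11 and 8.80, a difference of -1.11 ± 0.37. Rps29, a small zinc-binding protein of the head, read 12.68 and 12.50 against 12.37, 12.36 and 12.08, and its difference was -0.32 ± 0.33. Rps16, also of the head, lay on the other side of 0, at 0.24 ± 0.30. Its values of 3.93 and 4.47 against 4.69, 4.64 and 3.97 overlapped, and the difference was 0.47 without DBAxFVB F1 array 3 and -0.034 without AKRxFVB F1 array 1.

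Of the body and platform, all 9 tested genes lay lower, with a median of -0.78, and 8 of them without overlap, against 11.9% of all genes. Without DBAxFVB F1 array 3 the median was -0.63. Rps26, at the exit of the mRNA channel, read 10.22 and 9.64 against 8.81, 9.05 and 8.79, a difference of -1.05 ± 0.36 (SE). Rpsa, which was first named as a laminin receptor, read 8.61 and 7.81 against 7.18, 7.01 and 7.34, a difference of -1.03 ± 0.37 that was -0.63 without AKRxFVB F1 array 1. Rps2 read 8.62 and 8.75 against 8.55, 8.36 and 7.65, so its crosses were separated by less than 0.1. Its difference of -0.50 was -0.23 without DBAxFVB F1 array 3. Rps27 had a single dim probe set, with values of 3.30 and 3.92 against 3.39, 3.23 and 3.94, which overlapped. Its difference of -0.089 was -0.30 without DBAxFVB F1 array 3. Rps6, the subunit's substrate of the S6 kinases, had 2 probe sets below the filter and was not tested.

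Of the 10 listed genes whose loss causes Diamond-Blackfan anaemia, 6 had a probe set. All 6 lay lower in DBAxFVB F1 without overlap, with a median of -0.90, or -0.75 without DBAxFVB F1 array 3. The same held in 32 of the 40 tested members and in 11.9% of all genes, so it does not set these 6 apart from the other members. Rps19, the gene most often affected in that disease, read 7.87 and 6.86 in AKRxFVB F1 and 5.99, 6.20 and 6.54 in DBAxFVB F1. The difference was -1.12 ± 0.39 (SE), with a limma adjusted p of 0.393, and it was -0.61 without AKRxFVB F1 array 1. Rps7, Rps10 and Rps24 differed by -0.94 ± 0.38, -0.87 ± 0.38 and -0.78 ± 0.36, and Rps10 by -0.57 without AKRxFVB F1 array 1. Rpl11 and Rps26 are given above. Of 9 red cell markers 6 were tested, 2 of them lower and 4 higher in DBAxFVB F1, with a median of 0.09. Without DBAxFVB F1 array 3, 1 of the 6 lay lower, with a median of 0.12. Alas2, the first enzyme of heme synthesis in red cells, read between 13.45 and 13.59 on every array. Slc4a1, the anion exchanger of the red cell membrane, read 10.29 and 10.67 against 10.34, 10.71 and 9.13. Hba-a2, an alpha globin, read 5.72 and 5.87 against 5.35, 5.84 and 3.39, so Slc4a1 and Hba-a2 were lowest on DBAxFVB F1 array 3. Slc4a1 and Hba-a2 are the 2 that lay lower. On the other side, Car1, Hba-a1 and Epb42 differed by 0.33, 0.18 and 0.15, with means of 2.77, 2.56 and 4.45.

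Of the 4 listed X-linked genes, Rps4x and Rpl39 had probe sets. Rps4x, of the small subunit body, read 9.44 and 8.69 in AKRxFVB F1 and 7.80, 7.80 and 8.23 in DBAxFVB F1. Its difference was -1.12 ± 0.38 (SE), with a limma adjusted p of 0.386, and -0.75 without AKRxFVB F1 array 1. Paralogs of restricted expression were near the lower end of the scale. Rps27l, a p53 target, read 3.69 and 3.23 against 3.18, 2.73 and 3.15, a difference of -0.44 ± 0.21 that was -0.21 without AKRxFVB F1 array 1 and -0.67 without array 2. Rps4l, an autosomal relative of Rps4x, read 2.31 and 2.30 against 2.37, 2.91 and 2.81. It was the only tested member with every DBAxFVB F1 array above both AKRxFVB F1 arrays, and it lay just inside the filter with a mean of 2.54. Rpl3l, the striated muscle form, and Rpl39l, the testis form, had means of 2.14 and 2.08 and were not tested, nor were Rpl37, Rpl14, Rpl12 and Rps6. Rpl37 lay just outside the filter, at 2.51, with a difference of 0.01.

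**Figure D4:**
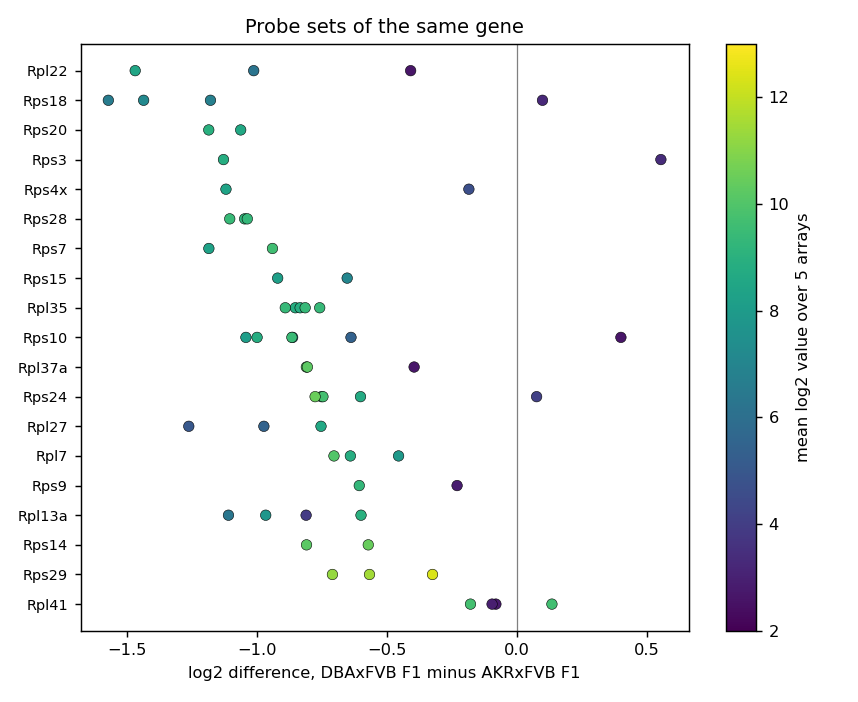
Each point is 1 tested probe set, placed by its log2 difference between the crosses (horizontal axis) in the row of its gene and coloured by its mean log2 value over the 5 arrays, for the 19 genes with more than 1 tested probe set. Bright probe sets of a gene lie close together, and the points right of 0 are dark, with the exception of 1 of Rpl41.

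Probe sets of the same gene gave similar differences where they were bright. Of the 100 probe sets, 81 were tested, and 74 of them lay lower in DBAxFVB F1, against 43.2% of all probe sets tested. At an unadjusted limma p below 0.05 there were 28 lower, against 6.79%, and 2 higher, against 3.59%, the latter both dim. In 63 every DBAxFVB F1 array lay below every AKRxFVB F1 array, against 12.6%, and in 3 above, against 16.4%. Of the 48 probe sets with a mean of 8 or more, 47 had a difference below 0 and 45 were lower without overlap. Counted by gene, 89.2% of the 213 other genes at that level lay lower, and 10.3% were lower without overlap. Without DBAxFVB F1 array 3, 73 of the 81 lay lower, with a median of -0.55. Among the 11 genes with more than 1 probe set at that level, the differences within a gene spanned a median of 0.17, and at most 0.39, in Rps29. Of the 19 genes with more than 1 tested probe set, 14 had all of them lower and 5 had signs that differed, Rpl41, Rps10, Rps18, Rps24 and Rps3. In Rps3 a probe set with a mean of 3.34 differed by 0.56 and the bright one by -1.13. In Rps10 a probe set with a mean of 2.62 differed by 0.40, and the other 5 by -0.64 to -1.04. These probe sets share a gene and an array and are not replicates.

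Ribosomal protein genes have many processed pseudogenes, so the kind of probe set bears on what is read. On this array family an ID with _x_at marks probes that can bind other transcripts, _s_at probes shared between genes, _a_at probes shared by transcripts of 1 gene, and a plain _at none of these. The median difference was -0.87 for the 24 tested _a_at probe sets, -0.75 for the 37 of _x_at and -0.61 for the 3 of _s_at. It was -0.13 for the 17 plain _at probe sets, 11 of them lower. Without DBAxFVB F1 array 3 these medians were -0.80, -0.50, -0.44 and -0.24. Of these 17, 11 had a mean of 4 or more, with a median of -0.75 and 9 lower, and the other 6 had a median of 0.25. Among the plain probe sets of higher signal were those of Rpl19, Rpl27, Rplp0, Rps15 and Rpsa, all with means above 7, at -0.78, -0.75, -0.61, -0.92 and -1.03.

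**Figure D5:**
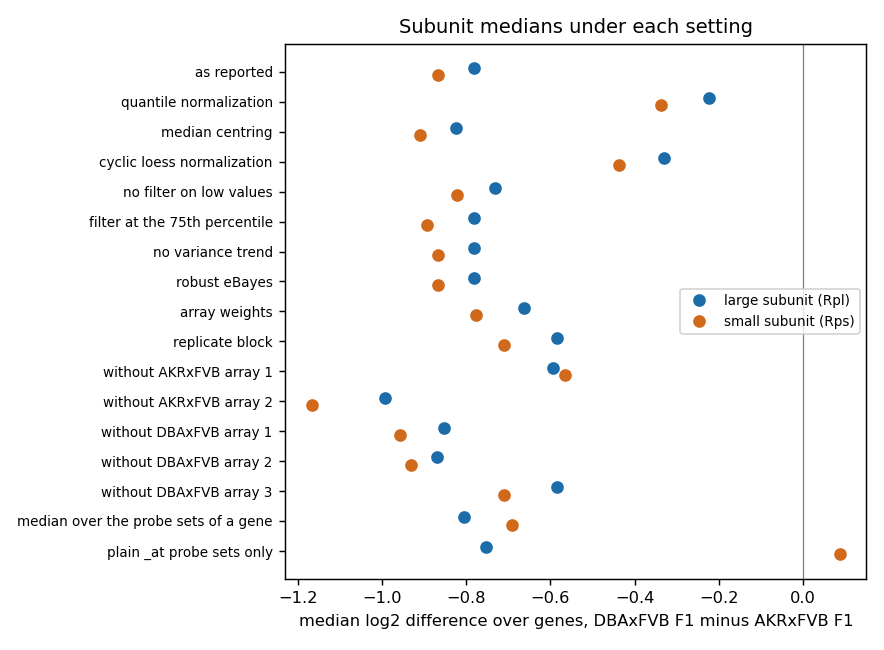
The horizontal axis is the median log2 difference between the crosses over the tested large subunit (blue) and small subunit (orange) genes, under the setting reported and each alternative (vertical axis). All medians lie below 0 except that of the small subunit with plain _at probe sets only, at 0.088.

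Among the other genes of translation, elongation factors and TOP mRNAs mostly read lower in DBAxFVB F1, and the genes of ribosome biogenesis and mTOR signalling were divided. Fau and Rps3a1, ribosomal proteins that the naming rule leaves out, differed by -0.93 ± 0.38 and -0.95 ± 0.38 (SE). Rpl22l1, the paralog of Rpl22, read 6.33 ± 0.41 (SD, n = 2) against 4.80 ± 0.32 (SD, n = 3), with a limma adjusted p of 0.174, and Rpl7l1 differed by 0.47 ± 0.13 on a dim probe set. The elongation factor genes had 4 of 4 tested members lower, with a median of -0.69, or -0.55 without DBAxFVB F1 array 3, and Eef1a1, which brings aminoacyl tRNA to the ribosome, differed by -0.78 ± 0.35. Of 13 other mRNAs with a TOP tract, 11 lay lower, and the median was -0.92, or -0.67 without that array. Over all 5 arrays, 9 of them had an unadjusted limma p below 0.05, against 6.4% of all genes lower. Eif3e, a subunit of an initiation factor, differed by -1.61 ± 0.33, and Naca, a subunit of the nascent chain complex, by -1.33 ± 0.35. Tpt1, a TOP mRNA with a mean above 13, differed by -0.02 ± 0.30.

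Of 26 tested ribosome biogenesis genes, 12 lay lower and 14 higher, with a median of 0.03 and a median level of 3.35. Without DBAxFVB F1 array 3, 15 lay lower, with a median of -0.071. Ncl, the nucleolar protein nucleolin, read 6.81 ± 0.79 (SD, n = 2) against 4.94 ± 0.17 (SD, n = 3), with a limma adjusted p of 0.164. Polr1d, a subunit of RNA polymerases I and III, differed by -1.07 ± 0.29 (SE). Of 16 genes of mTOR signalling and TOP mRNA control, 9 lay lower, with a median of -0.05, or -0.12 without array 3. Rps6ka3, a kinase of the ERK pathway that phosphorylates the ribosomal protein Rps6, differed by -1.11 ± 0.18, with a limma adjusted p of 0.136. Rheb, the GTPase that activates mTOR, differed by -0.71 ± 0.22, and Larp1 by -0.32 ± 0.20. No gene of these lists passed in limma over all genes.

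Most lymphocyte and monocyte markers also read lower in DBAxFVB F1, and their part in the ribosomal protein result was not tested. Of 8 B cell markers 7 had probe sets, and 6 of these lay lower in DBAxFVB F1. The log2 of their summed signal was 9.96 and 8.69 in AKRxFVB F1 and ran from 7.51 to 8.51 in DBAxFVB F1, without overlap. Gene by gene, 3 of the 7 were lower without overlap and 4 overlapped, and without DBAxFVB F1 array 3 it was 6 of 7 without overlap, with a median of -1.18. Over all genes, 11.9% were lower without overlap, or 17.4% without that array. Of 8 T cell markers 7 were tested and all 7 lay lower, with 7.49 and 7.60 against 6.57 to 7.07. Of the T cell markers 5 did not overlap. Relative to the mean of the arrays, the B cell median was 1.53 and -0.11 in AKRxFVB F1 and -0.82, -0.53 and 0.00 in DBAxFVB F1, highest on AKRxFVB F1 array 1 as for the ribosomal protein genes, and the T cell median 0.14 and 0.43 against 0.06, -0.38 and -0.20. The summed monocyte signal was 10.70 and 10.26 against 9.28 to 10.30, that of platelets 11.62 and 12.53 against 10.41 to 12.20, and that of neutrophils 8.60 and 7.92 against 7.68 to 8.47, all with overlap. Gene by gene, 5 of 6 monocyte markers lay lower over all 5 arrays, 3 of them without overlap, with a median of -0.71. Without DBAxFVB F1 array 3, 5 of the 6 were lower without overlap, with a median of -1.13. Of the platelet markers, 2 of 7 lay lower without that array, where 7 of 7 did with it. Of 5 heart muscle markers, which a cardiac puncture could bring, 3 were below the filter. Their summed signal was 4.65 and 4.95 against 4.87 to 5.41.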

How the data were processed

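The values deposited by the authors were taken as log2 because they ran from 1.29 to 14.8, with 1 value for each probe set on each array. MAS5 and RMA are named, with no version, per the submitters' processing notes; which of them made the values, the background correction and the scaling between arrays are not given in the sources used here. A platform annotation gave 1 gene symbol to 34945 of 45037 probe sets, several to 932 and none to 9160, and only probe sets with 1 symbol were named. The number of arrays limits the precision.

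Probe sets whose mean was at or above the median, 2.51, were tested (22519) with limma 3.58.1 in R 4.3.3 (lmFit, eBayes with a variance trend, cross as the only term), two-sided, with Benjamini-Hochberg adjustment over all of them and a threshold of 0.05. Errors of differences are limma's standard errors. The smallest p that an exact permutation test allows with groups of 2 and 3 is 0.1. Members and gene lists were chosen with earlier results of these data known, and lists are described by counts and medians without a test. Named were the 10 lower members of smallest p, up to 6 higher, the 3 of smallest difference, the members of the small groups, and up to 4 genes of smallest p in each other translation list, and the genes whose probe sets differed in sign. Of the blood markers only the 6 tested ones of red cells are named. The remaining members and genes named in the text were chosen after their values were seen. The limma step was tested on simulated data. Replicate numbers were not taken as pairs of arrays. Values were prepared with Python 3.11.15, pandas 2.3.3 and matplotlib 3.10.9. RefSeq protein sequences were not used here.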

Additional observations from a re-analysis of the deposited data

How the results depend on the processing

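Differences are log2, DBAxFVB F1 minus AKRxFVB F1. Limma called 0 members at an adjusted p below 0.05 or 0.1 with the values as deposited, and 14 at an unadjusted p below 0.05. The medians over all members, large subunit and small subunit genes, -0.78, -0.78 and -0.87 as reported, were -0.29, -0.22 and -0.34 after quantile normalization and -0.35, -0.33 and -0.44 after cyclic loess normalization. With plain _at probe sets only, 11 of 17 genes lay lower, the medians over all members and the small subunit were -0.13 and 0.088, and the large minus small difference, 0.085 as reported, was -0.84. With the median over the probe sets of a gene it was -0.12. With 1 array left out, the medians ranged from -0.99 to -0.59 (all), -0.99 to -0.59 (large) and -1.17 to -0.57 (small), the large minus small difference from -0.029 (without AKRxFVB F1 array 1) to 0.17, the count of lower members from 36 to 39, and the count called stayed at 0. The ends of the small subunit range were without AKRxFVB F1 array 2 and array 1. Rps16 ranged from -0.034 to 0.51, Rps27 from -0.39 to 0.22 and Rps25 from -0.41 to 0.13. The cause of these changes was not tested. With the replicate number as a block, which leaves 1 residual degree of freedom and drops DBAxFVB F1 array 3 from the comparison, the median was -0.61, the large and small subunit medians -0.59 and -0.71, 37 members lay lower, 0 were called (2 at an adjusted p below 0.1) and 20 had an unadjusted p below 0.05, against 7.32% of all genes. Arrays of the same number had deviations that correlated at -0.26 and 0.17 across probe sets. The deviations of the 2 AKRxFVB F1 arrays mirror each other, so these values cannot settle if arrays of the same number were paired. The other alternatives (median centring, other filters, no variance trend, robust variance, array weights) kept the direction of all these medians and 0 calls.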

Other observations

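A further 110 probe sets carried several gene symbols, at least 1 of them of a ribosomal protein. They were not members and are not named. Their symbols held 43 ribosomal protein genes, 28 of which had no probe set of their own. Of the 95 that were tested, 88 lay lower in DBAxFVB F1 blood, against 43.2% of all probe sets tested, with a median log2 difference of -0.84. In 79 of them every DBAxFVB F1 array lay below every AKRxFVB F1 array, where 12.6% of all probe sets tested did so. Limma called 0 at an adjusted p below 0.05. At an unadjusted limma p below 0.05 there were 43 lower, against 6.79% of all probe sets tested, and 2 higher, against 3.59%. The smallest limma adjusted p was 0.169. These values come from the same arrays as those of the members and are no independent support for them.

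Grouped by conservation, the 19 tested members whose proteins are shared by bacteria, archaea and eukaryotes had a median difference of -0.75, with 18 lower, close to that of all 40 tested members.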
